A study of Mus musculus with 4 samples.

Results

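The genes of respiratory complexes II to V were taken from the arrays by name. They are the array genes called Sdha to Sdhd, Uqcr, Cyc1, Cycs, Cox4 to Cox8, Cox10 to Cox19 and Atp5, 58 of 34821 gene names, measured with 94 probes. They were read in RNA brought down from corticohippocampal lysate of male C57BL/6 mice aged 8 weeks, an inbred laboratory strain, by a ribonucleoprotein immunoprecipitation read out on arrays. One group is RNA precipitated in 3 h with beads that carried an antibody against CPEB3 (CPEB3 IgG, 2 arrays), and the other is RNA precipitated in the same way with a control antibody (control IgG, 2 arrays). The labels name no treatment or mutation in either group, and no array of the lysate before precipitation was used here. Every difference below is therefore one between precipitates of bulk lysate made with 2 antibodies, and not one in the amount of an mRNA in the tissue. Which cells the RNA came from cannot be told. In the text, fell and rose mean lower and higher with CPEB3 IgG than with control IgG. Of the 58 genes, 57 passed the filter on dim probes, and all 57 were well above background on all 4 arrays. Cox8c, a testis isoform of complex IV, was not well above background on any array and was not tested.

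The respiratory chain sits in the inner mitochondrial membrane. Complex II oxidises succinate and passes the electrons to ubiquinone, complex III moves them on to cytochrome c, complex IV passes them from cytochrome c to oxygen, and complex V uses the proton gradient to make ATP. Neurons depend on this pathway for most of their ATP. All subunits of complex II are encoded in the nucleus, whereas complexes III, IV and V also contain subunits encoded in mitochondrial DNA, which are translated inside the organelle. CPEB3 binds mRNAs in the cytoplasm and controls their translation in neurons, and the comparison asks which of these nuclear-encoded mRNAs came down with its antibody more, or less, than with the control antibody.

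A level here is the log2 signal of a gene's brightest probe relative to the 75th percentile on that array, and a log2 difference is CPEB3 IgG minus control IgG. The 75th percentile was 507 and 353 units on the CPEB3 IgG arrays and 443 and 425 units on the control IgG arrays, and 68.0% to 73.4% of probes were well above background. All 10 markers of cortical and hippocampal neurons were well above background on all arrays, as were all 6 of interneurons, 5 of astrocytes, 5 of oligodendrocytes and 5 of microglia, 4 of endothelium and blood, but 2 of 4 of cerebellum. Among those tested, 1 neuronal marker was called higher and 1 lower, 2 interneuron markers lower, 2 astrocyte markers higher and 1 lower, and 1 microglial and 1 blood marker lower. No oligodendrocyte or cerebellar marker was called. Markers of other tissues were above background too, 6 or 7 of 7 of skeletal and heart muscle and 2 or 3 of 5 of testis on each array. Being above background therefore says little about the tissue. A call means an adjusted p under 0.05 over all genes tested (limma, Benjamini-Hochberg). There are 2 arrays a group, and the position on the slide separates the groups, so position and antibody cannot be told apart. Nothing in the labels ties the replicates to different mice or lysates, so the p-values rest on a spread between these 4 arrays that may be technical only. In the fits below that leave out 1 array, a group is left with 1 array, which is assumed to vary like the other group.

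Most mRNAs of these complexes were lower with CPEB3 IgG. Of the 57 genes, 33 were called lower (57.9%), where 20.2% of all 27687 genes were called lower. Only 7 were called higher (12.3%), where 19.2% of all genes were. Those 7 are Sdhc, Sdhd, Cox8a, Cox11, Cox14, Cox15 and Cox18. The median log2 difference of the 57 genes was −0.89, beside −0.14 for all genes. These are bright genes on the array, with 47 of the 57 among the brightest 25% of all genes by mean level, a set chosen after seeing the data. Of these 47, 32 were called lower and 5 higher, where 26.4% of the 6922 brightest genes were called lower and 33.2% higher. The 2 groups of arrays overlapped for Cox10, Cox17, Cox4i2, Cox6b2 and Cox8b, none of which was called. With 2 arrays a group, genes also separate by chance, and the share over all genes was not counted. Where a lack of overlap is given below, it describes the values and is no further support for a call.

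**Figure D1:**
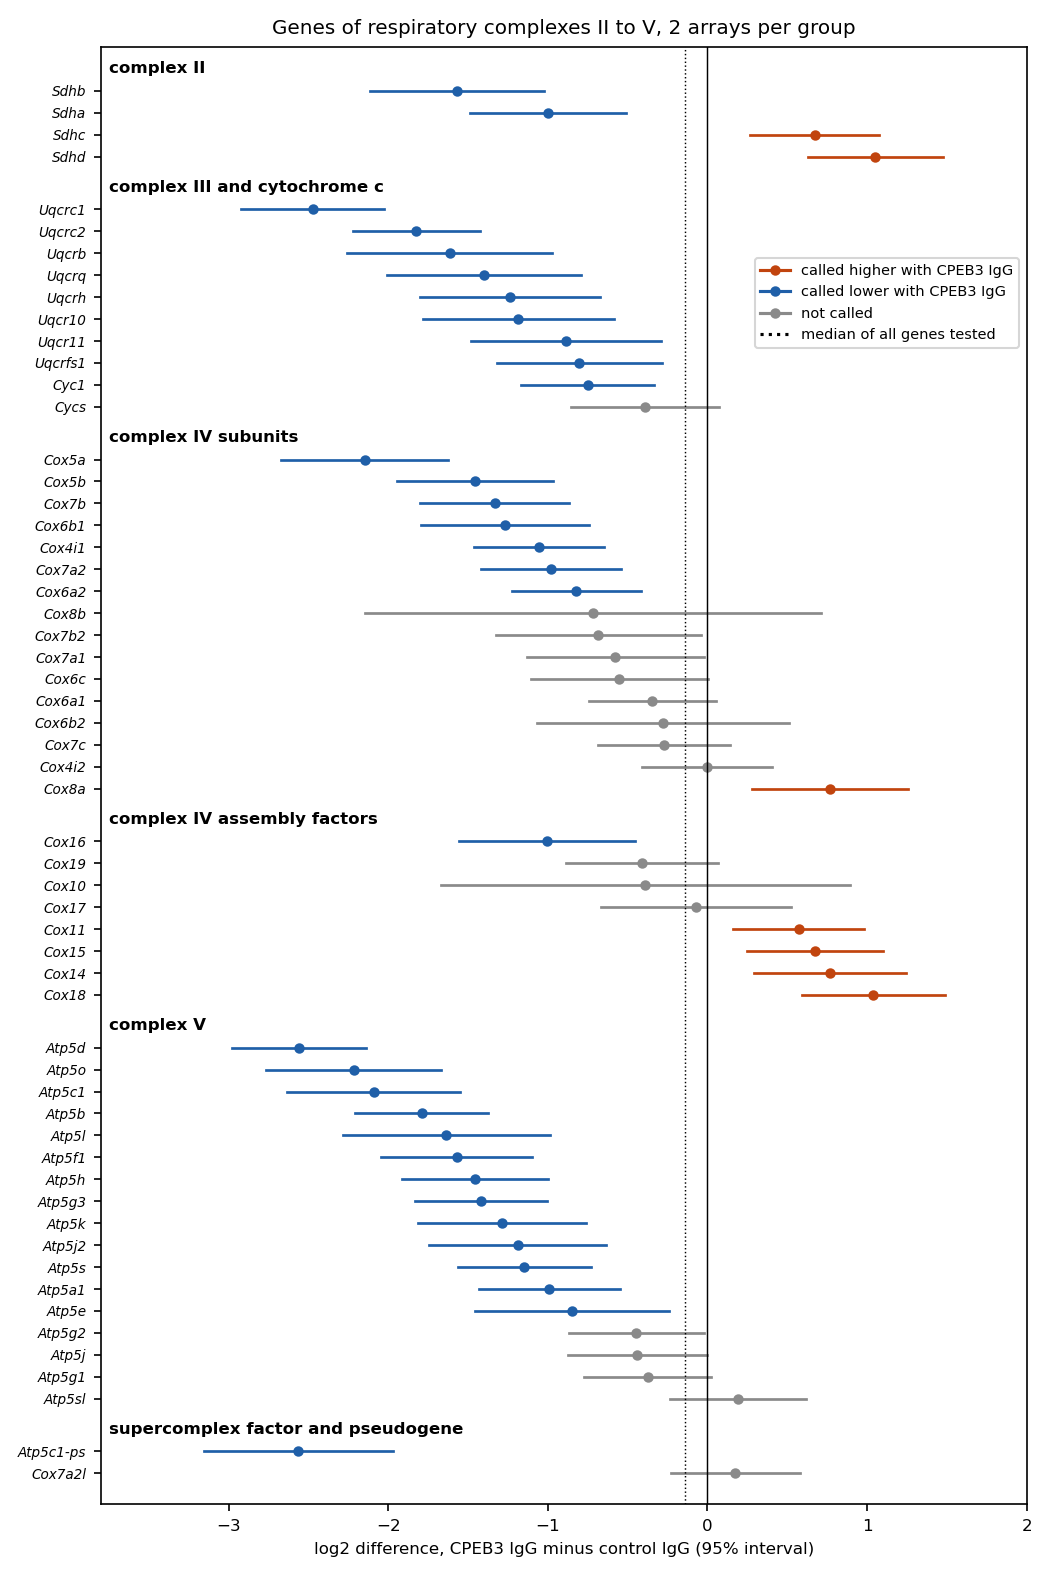
Log2 difference (CPEB3 IgG minus control IgG, 2 arrays each) of each of the 57 genes tested, sorted within its complex. Points are fitted differences and bars are 95% intervals. The values run from −2.56 to 1.05, complexes III and V hold no gene called higher, and complex II is divided between 2 genes called lower and 2 called higher.

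The complexes differed in how uniform their genes were. Complex III had 9 of 10 genes called lower, counting cytochrome c. Complex V had 13 of 17, counting Atp5s and Atp5sl, which encode no subunit. All 10 differences in complex III and 16 of 17 in complex V were negative. Complex IV subunits were mixed, with 7 lower, 1 higher and 8 not called of 16. Complex II had 2 lower and 2 higher of 4, and the complex IV assembly factors named Cox10 to Cox19 had 1 lower and 4 higher of 8. The medians were −0.16 for complex II, −1.21 for complex III with cytochrome c, −0.70 for complex IV subunits, 0.25 for complex IV assembly factors and −1.29 for complex V. Scaling on the spike-in RNA moved the median of all genes to 0.51, and the medians then read 0.49 for complex II, −0.56 for complex III, −0.045 for complex IV subunits, 0.91 for the assembly factors and −0.63 for complex V. Complex II alone turned its sign, also with median scaling (0.13). Both scalings move every gene by the same amount, so the 57 genes stayed 0.75 below the median of all genes, and the signs given here hold relative to it. With spike-in scaling 33 of the 40 calls were lost, leaving 5 lower and 2 higher, where 770 of all 27687 genes were lower and 4904 higher. The mean log2 spike-in signal was itself 13.11 and 13.43 on the CPEB3 IgG arrays, against 13.97 and 13.95 on the control IgG arrays, and its part in these calls was not tested.

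**Figure D2:**
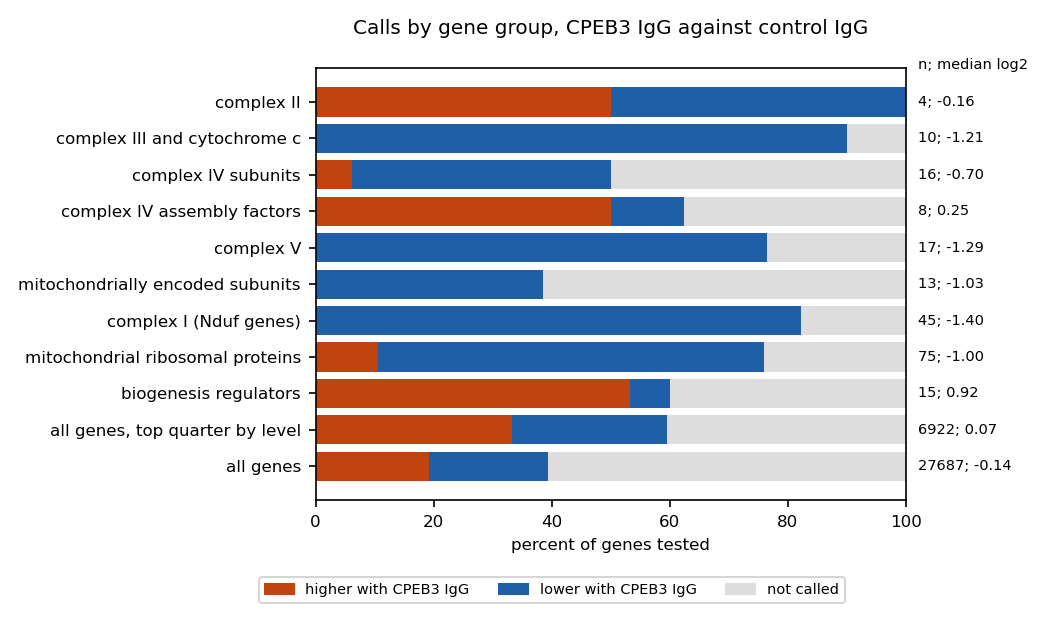
Percent of genes called higher or lower with CPEB3 IgG in each group of genes, with the number tested and the median log2 difference at the right. The bars of complexes III and V, complex I and the mitochondrial ribosomal proteins are mostly genes called lower. The biogenesis regulators and the complex IV assembly factors, here only those named Cox10 to Cox19, hold more genes called higher than lower.

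The probes behind the main results read as follows, each as 30 bases of the sense strand from 5′ to 3′, shown so that the genes called higher can be set beside those called lower. Capitals mark AATAAA or ATTAAA, the polyadenylation signals near the 3′ end of an mRNA, and TTTTAT, a form of the cytoplasmic polyadenylation element. Where a probe holds none of these letters its middle 30 bases are given in lower case. The probe of Cox15, called higher, also holds TTTTAAT, which is not whole within the 30 bases shown. Positions are those of the whole probe in mm9, from the files, and whether they lie in coding sequence or a UTR was not analysed here.
Sdha, lower, chr13:74460310-74460369, minus strand: ttattcttgtgcagtgataaaactggcata
Sdhb, lower, chr4:140535052-140535108, plus strand: tacagcatatgtAATAAAcatttaagataa
Sdhc, higher, chr1:173059539-173059598, minus strand: attggtcagcttagggcctttagcacccac
Sdhd, higher, chr9:50404630-50404689, minus strand: gctggatttagacaagttcaatttagggag
Uqcrc1, lower, chr9:108851008-108851487, plus strand: tgctccaagtacTTTTATgaccaatgtcca
Uqcrb, lower, chr13:67001654-67001713, minus strand: gggcaaagaagtgatcttttagttaagatc
Cox5a, lower, chr9:57379593-57380141, plus strand: cctaaggacttaactgctattgctacttga
Cox8a, higher, chr19:7289652-7289708, minus strand: cccctttgtaacAATAAAgtctatttaaac
Cox14, higher, chr15:99558413-99558472, plus strand: tgaggtttattacagagATTAAAtattttg
Cox15, higher, chr19:43809657-43809716, minus strand: cacacttaaaggATTAAAtaatttctttta
Atp5d, lower, chr10:79608230-79608289, plus strand: gatccgtattgaggccaatgaagccctagt
Atp5b, lower, chr10:127527255-127527314, plus strand: gaagatgtgatgttctctctgaagagtatt
Atp5l, lower, chrX:35750466-35750525, plus strand: gactgctatctgAATAAAacactaggtgtt

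In complex II, succinate dehydrogenase, the mRNAs of the catalytic subunits fell and those of the membrane anchors rose. Sdhb, the iron-sulphur subunit, had levels of 5.06 and 4.70 with CPEB3 IgG, against 6.55 and 6.34 with control IgG. It was 2.96-fold lower (95% interval 2.03 to 4.32, adjusted p = 0.00798). Sdha, the flavoprotein that binds succinate, had levels of 3.40 and 3.08 with CPEB3 IgG, against 4.26 and 4.21 with control IgG, a log2 difference of −0.998 ± 0.182 (SE, adjusted p = 0.0176). Both CPEB3 IgG arrays were below both control IgG arrays for each gene. Sdhd, an anchor subunit, had levels of 5.30 and 5.47 with CPEB3 IgG, against 4.37 and 4.30 with control IgG and was 2.07-fold higher (1.55 to 2.78, adjusted p = 0.011). Sdhc, the other anchor subunit, which with Sdhd forms the ubiquinone site, had levels of 4.35 and 4.26 with CPEB3 IgG, against 3.67 and 3.59 with control IgG. It was 1.59-fold higher (1.20 to 2.11, adjusted p = 0.0291). For both anchors the CPEB3 IgG arrays were the higher ones, with no overlap. A second probe of Sdhb fell by 2.32 and a second probe of Sdhc rose by 0.93 on the log2 scale. Sdhb kept its call with any 1 array left out (−1.75 to −1.39) and lost it with spike-in scaling (−0.91, adjusted p = 0.276). With 1 array left out in turn, Sdhc was never called (0.63 to 0.72), Sdha was called in 1 of the 4 fits (−1.16 to −0.84) and Sdhd in 2 (0.97 to 1.14, lost without CPEB3 IgG replicate 1 or 2).

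**Figure D3:**
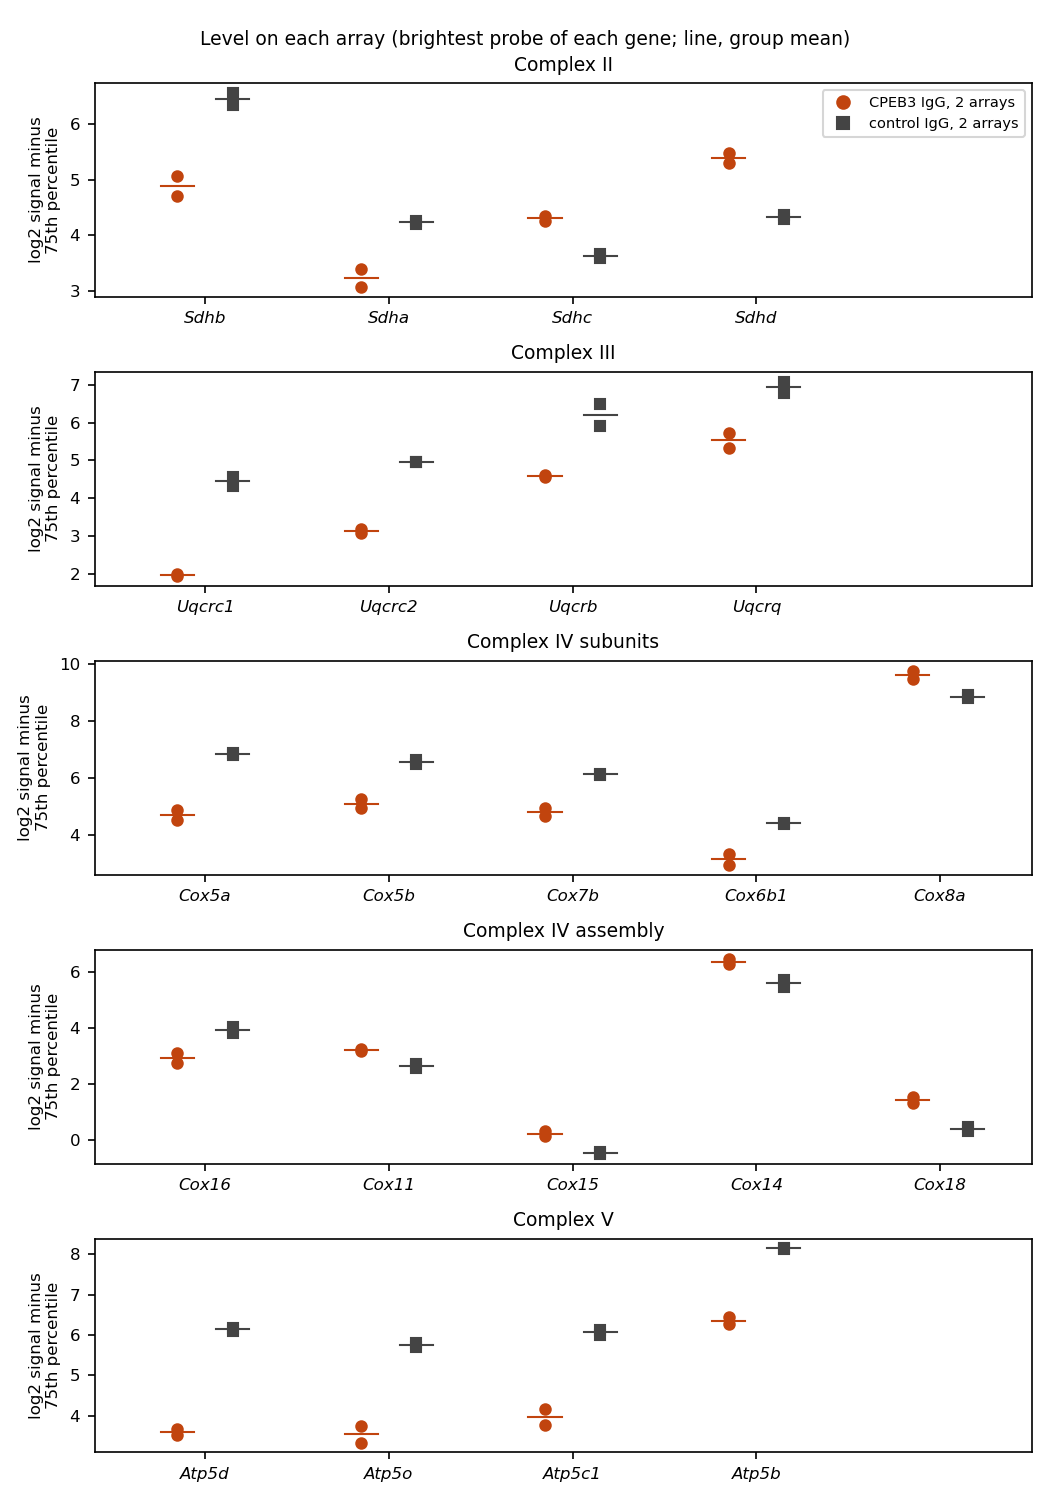
Level (log2 signal relative to the 75th percentile) on each of the 4 arrays for the genes with the largest called differences in each complex and for those called higher. Circles are CPEB3 IgG arrays, squares are control IgG arrays and lines are group means. The circles lie below the squares for Sdhb, Sdha, Cox5a, Cox5b, Cox7b, Cox6b1, Cox16 and every complex III and V gene shown, and above them for Sdhc, Sdhd, Cox8a, Cox11, Cox15, Cox14 and Cox18.

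In complex III, the cytochrome bc1 complex, all 9 subunit mRNAs fell. The core subunits led. Uqcrc1, core protein 1, had levels of 1.94 and 1.99 with CPEB3 IgG, against 4.32 and 4.56 with control IgG, and was 5.55-fold lower (95% interval 4.07 to 7.58, adjusted p = 0.00386). Uqcrc2, core protein 2, had levels of 3.18 and 3.09 with CPEB3 IgG, against 4.96 and 4.96 with control IgG, and was 3.54-fold lower (2.69 to 4.67, adjusted p = 0.00398). Its single probe is spotted 10 times on each array, and the SD over those spots was 0.035 and 0.033 with CPEB3 IgG, against 0.039 and 0.050 with control IgG. These SDs cover the spread between spots of 1 array and not that between precipitates. Uqcrb, a small subunit near the ubiquinone site, had levels of 4.56 and 4.60 with CPEB3 IgG, against 6.48 and 5.92 with control IgG, and was 3.07-fold lower (1.96 to 4.78, adjusted p = 0.0107). Uqcrq, another small subunit, had levels of 5.73 and 5.32 with CPEB3 IgG, against 7.08 and 6.78 with control IgG, and was 2.64-fold lower (1.73 to 4.02, adjusted p = 0.013). None of these genes overlapped between the groups.

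The other complex III genes differed less. The hinge protein Uqcrh (−1.24), the small subunits Uqcr10 (−1.19) and Uqcr11 (−0.89), the Rieske iron-sulphur protein Uqcrfs1 (−0.80) and the haem protein cytochrome c1, Cyc1 (−0.75), were called lower. Cycs, which encodes cytochrome c itself, had a log2 difference of −0.39 (95% interval −0.86 to 0.07, adjusted p = 0.142), and its 3 probes gave −0.81, −0.39 and −0.19, none called. The 3 genes of redox proteins, Uqcrfs1, Cyc1 and Cycs, had the smallest differences of the group, but their difference from the core subunits was not tested. Uqcrc1 kept its call in all 15 other settings. With CPEB3 IgG replicate 2 left out, Uqcrb, Uqcrq, Uqcrh, Uqcr10, Uqcr11, Uqcrfs1 and Cyc1 were not called (−1.64 to −0.62), with spike-in scaling 8 of the 9 calls were lost (−1.17 to −0.097), and Uqcr11, Uqcrfs1 and Cyc1 were called in none of the 4 fits with 1 array left out (−1.11 to −0.62 over the 3 genes).

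Cytochrome c oxidase, complex IV, has a catalytic core encoded in mitochondrial DNA and a ring of nuclear-encoded subunits around it, several of which have isoforms for heart and skeletal muscle, lung or testis. The general isoforms carried most of the calls, with 6 lower, 1 higher and 3 not called of 10. Cox5a had levels of 4.89 and 4.51 with CPEB3 IgG, against 6.81 and 6.89 with control IgG, and was 4.43-fold lower (95% interval 3.08 to 6.37, adjusted p = 0.00431). Cox5b, which binds zinc, had levels of 5.25 and 4.95 with CPEB3 IgG, against 6.62 and 6.49 with control IgG (2.74-fold lower, 1.96 to 3.84, adjusted p = 0.00734). Both genes were lower on both CPEB3 IgG arrays than on either control IgG array. Cox7b had levels of 4.94 and 4.66 with CPEB3 IgG, against 6.15 and 6.11 with control IgG (2.52-fold lower, 1.82 to 3.48, adjusted p = 0.00806). Cox6b1, which faces the intermembrane space, had levels of 3.34 and 2.95 with CPEB3 IgG, against 4.43 and 4.39 with control IgG (2.41-fold lower, 1.67 to 3.48, adjusted p = 0.012). Cox4i1, to which ATP binds as a regulator of the enzyme, and Cox7a2 were also called lower, with log2 differences of −1.06 and −0.98.

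Cox8a, a short subunit in the membrane, was the one complex IV subunit called higher. Its levels were 9.48 and 9.78 with CPEB3 IgG, against 8.93 and 8.80 with control IgG, without overlap, and it was 1.70-fold higher (95% interval 1.21 to 2.39, adjusted p = 0.0341). Its second probe rose by 0.92 on the log2 scale. The general isoforms Cox6c (−0.55), Cox6a1 (−0.35) and Cox7c (−0.27) were not called, with adjusted p of 0.100, 0.134 and 0.231. Cox5a kept its call in all 15 other settings, whereas Cox8a was not called in any of the 4 fits with 1 array left out (0.62 to 0.92) or with spike-in scaling (1.42, adjusted p = 0.0573). The muscle isoform Cox6a2 was likewise called in none of these 4 fits (−0.88 to −0.77), Cox7a2 in 1 (−1.07 to −0.90, kept without control IgG replicate 2), Cox4i1 in 2 (−1.12 to −0.99, lost without either CPEB3 IgG array) and Cox6b1 in 3 (−1.46 to −1.07, lost without CPEB3 IgG replicate 2).

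Of the 6 tissue-specific isoforms of complex IV tested, 1 was called. Of the muscle or heart isoforms, Cox6a2 was called lower (−0.82, adjusted p = 0.0175), with levels of 1.76 and 1.65 with CPEB3 IgG, against 2.50 and 2.54 with control IgG. Cox7a1 (−0.58) and Cox8b (−0.72) were not called, and Cox8b varied between arrays of one group, with an SD of 0.60 with CPEB3 IgG and 0.88 with control IgG. Of the 7 markers of skeletal and heart muscle, 3 were called lower and 4 were not called. Of their differences 6 were negative and 1 was positive (Ckm, 0.39). The summed level of these markers was 2.73 and 2.59 with CPEB3 IgG, against 3.45 and 3.49 with control IgG. Myh7 (−0.80) was the brightest of the markers in that sum. Their part in the result was not tested. The testis isoforms Cox6b2 (−0.28) and Cox7b2 (−0.68) were not called, beside 2 of 2 testis markers tested that were called lower and 3 of 5 that were not tested. Cox4i2, an isoform induced by low oxygen in lung, had the smallest difference of all 57 genes, −0.0055 (95% interval −0.41 to 0.40).

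The complex IV assembly factors named Cox10 to Cox19, which build the enzyme but are not part of it, included 4 of the 7 genes called higher. Assembly factors of this complex with other names did not lean the same way: of 13 tested, 2 were higher and 6 lower. Cox18, an inner-membrane insertase for a core subunit, had levels of 1.54 and 1.33 with CPEB3 IgG, against 0.33 and 0.46 with control IgG, and was 2.05-fold higher (95% interval 1.51 to 2.80, adjusted p = 0.0128). Cox14, a small factor that acts in the synthesis of the first core subunit, had levels of 6.46 and 6.29 with CPEB3 IgG, against 5.73 and 5.49 with control IgG (1.70-fold higher, 1.23 to 2.37, adjusted p = 0.0312). For both, every CPEB3 IgG array was above every control IgG array. Cox15, which makes haem a, had levels of 0.30 and 0.12 with CPEB3 IgG, against −0.50 and −0.43 with control IgG (1.59-fold higher, adjusted p = 0.0334). Cox11, which delivers copper, had levels of 3.24 and 3.19 with CPEB3 IgG, against 2.58 and 2.71 with control IgG (1.49-fold higher, 1.12 to 1.97, adjusted p = 0.045). Neither Cox15 nor Cox11 overlapped between the groups.

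Cox16 was the one of these assembly factors called lower. Its levels were 3.13 and 2.75 with CPEB3 IgG, against 4.05 and 3.84 with control IgG, and it was 2.01-fold lower (1.37 to 2.94, adjusted p = 0.023). Cox10, which acts just before Cox15 in haem a synthesis, overlapped between the groups (−0.39, 95% interval −1.67 to 0.89), as did the copper chaperone Cox17 (−0.07). Cox19, also linked to copper delivery, had a log2 difference of −0.41 and was not called. None of the 5 calls of this group held in all 4 fits with 1 array left out: Cox11, Cox14 and Cox15 were called in none (0.50 to 0.64, 0.65 to 0.89 and 0.58 to 0.76), Cox16 in 1 (−1.19 to −0.82) and Cox18 in 2 (0.94 to 1.14). Cox11 was also lost with quantile (0.44), cyclic loess (0.49), spike-in or no scaling.

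Complex V, the ATP synthase, showed the lowest median of the complexes, −1.29, with 13 of 17 genes called lower. All 5 subunits of F1, the catalytic head that makes ATP, fell. Atp5d, the delta subunit, had levels of 3.66 and 3.51 with CPEB3 IgG, against 6.11 and 6.18 with control IgG. It was 5.90-fold lower (95% interval 4.41 to 7.88, adjusted p = 0.00386), and kept its call in all 15 other settings. Atp5c1, the gamma subunit that turns as the central shaft, had levels of 4.17 and 3.77 with CPEB3 IgG, against 6.12 and 6.01 with control IgG (4.26-fold lower, 2.93 to 6.21, adjusted p = 0.00465). Atp5b, the beta subunit with the catalytic sites, had levels of 6.44 and 6.27 with CPEB3 IgG, against 8.15 and 8.15 with control IgG (3.46-fold lower, 2.59 to 4.62, adjusted p = 0.00411). The arrays of the 2 groups did not overlap for any of these 3 genes. The alpha subunit Atp5a1 (−0.99) and the epsilon subunit Atp5e (−0.85) fell less.

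Of the peripheral stalk, which holds the head still, 3 of 4 genes were called lower. Atp5o, the subunit that ties the stalk to the head, had levels of 3.74 and 3.33 with CPEB3 IgG, against 5.80 and 5.69 with control IgG (4.65-fold lower, 3.18 to 6.81, adjusted p = 0.00438), and kept its call in all 15 other settings. Atp5f1, the b subunit, fell by 1.57 and Atp5h, the d subunit, by 1.46 on the log2 scale, whereas Atp5j, the coupling factor F6, gave −0.44 (95% interval −0.87 to −0.0047, adjusted p = 0.0972). The small membrane subunits Atp5l (−1.64), Atp5k (−1.29) and Atp5j2 (−1.19) were all called lower.

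The c ring, the rotor that protons turn, is built from 1 mature protein encoded by 3 genes, and these did not read alike. Atp5g3 had levels of 5.48 and 5.33 with CPEB3 IgG, against 6.83 and 6.82 with control IgG and was 2.67-fold lower (2.01 to 3.56, adjusted p = 0.0056). Atp5g2 (−0.44, 95% interval −0.87 to −0.020) and Atp5g1 (−0.37, −0.77 to 0.021) were not called, and their intervals end above that of Atp5g3 (−1.83 to −1.01), without a test of the difference. Of the 2 genes that carry the Atp5 name but encode no subunit, Atp5s, now Dmac2l, was called lower (−1.15) and Atp5sl, now Dmac2, was not called (0.19). With CPEB3 IgG replicate 2 left out, Atp5a1, Atp5e, Atp5j2, Atp5k and Atp5s lost their calls (−1.13 to −0.64). Atp5e was called in none of the 4 fits with 1 array left out (−1.06 to −0.64) and Atp5a1 in 2 (−1.10 to −0.88), lost also without CPEB3 IgG replicate 1, and 11 of the 13 calls of this complex were lost with spike-in scaling (−1.44 to −0.20).

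Atp5c1-ps, named in the files as a pseudogene of Atp5c1, was also called lower, with levels of 1.00 and 0.57 with CPEB3 IgG, against 3.23 and 3.47 with control IgG. Its log2 difference was −2.56 (95% interval −3.16 to −1.97), beside −2.09 for Atp5c1, and RNA of the parent gene may bind a pseudogene probe, so its value is uncertain. Cox7a2l, which joins complexes III and IV into supercomplexes, was not called (0.17, 95% interval −0.23 to 0.58), and its 3 probes gave 0.14, 0.17 and 0.31.

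Further probes read the same mRNA again, and they mostly agreed within a gene. Several of them overlap the brightest probe, as in Uqcr10 (from bases 373 and 380 of the transcript) and Uqcrb (335 and 346). Such probes share most of their bases, so their agreement is no reading at another place. Over all 40616 probes, 52 of the 91 probes kept for these genes were called lower and 8 higher, where 18.9% of all probes were called lower and 15.8% higher. Of 23 genes with several probes kept, 21 had the same call at every probe and none was called in opposite directions. The median range between the probes of a gene was 0.20 on the log2 scale. The 6 probes of Atp5l, which start between bases 360 and 453 of the transcript, spanned −1.70 to −1.62. The files place its brightest probe on the X chromosome and the others on chromosome 9. Uqcr11, Uqcrh, Atp5j2 and Atp5k likewise have a probe placed on another chromosome or an unplaced contig than their other probes, and the 2 or 3 probes of each spanned at most 0.15. Such copies of a gene cannot be told apart by these probes.

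Both genes with unlike calls were assembly factors of complex IV. Cox15 was called higher at its brightest probe (0.67), at position 2825 of the transcript, and not at position 1138, where its levels were −1.20 and −0.89 with CPEB3 IgG, against −1.08 and −0.98 with control IgG. The mean of its 2 probes was not called (0.33, adjusted p = 0.156). Cox16 was called lower at positions 225 (−1.28) and 543 (−1.01). It was not called at position 1927 (0.09), where the levels were −2.68 and −2.62 with CPEB3 IgG, against −3.11 and −2.36 with control IgG. The dim probe of each gene overlapped between the groups. The single probes kept for Cox11 and Atp5e were each called in the test over genes and not in that over probes (adjusted p = 0.0551 and 0.0515).

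**Figure D4:**
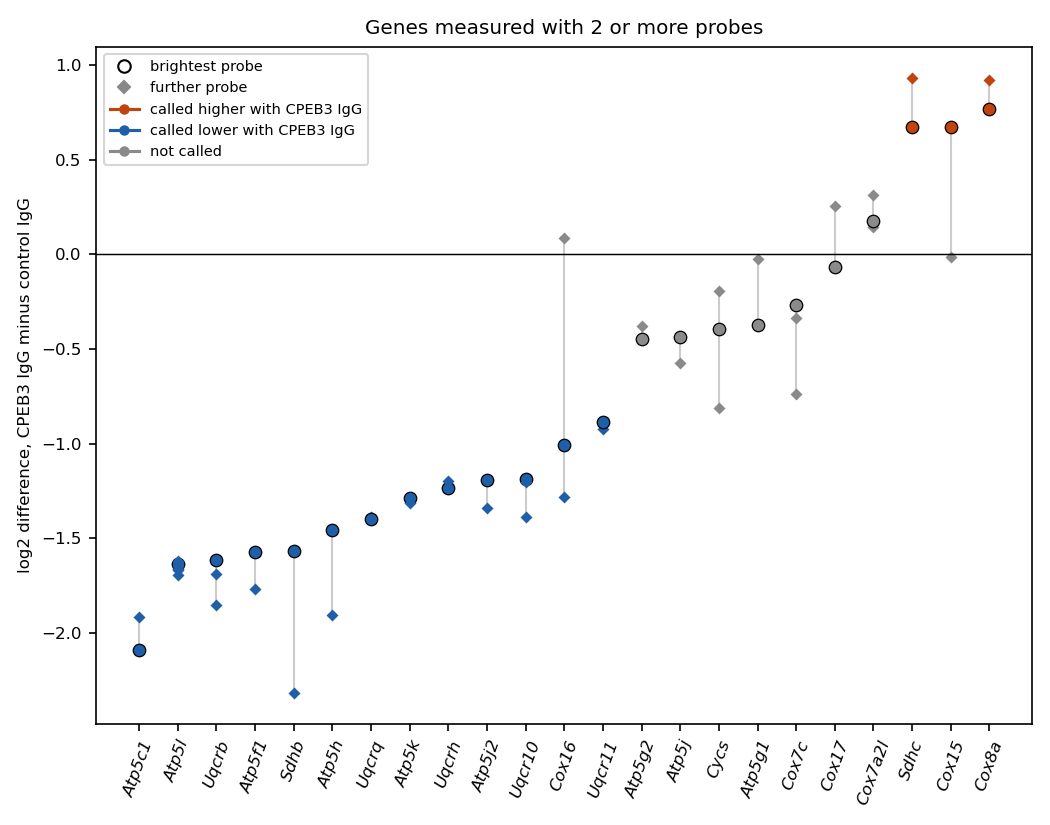
Log2 difference (CPEB3 IgG minus control IgG) at every probe kept for the 23 genes with 2 or more probes, sorted by the brightest probe. Circles are the brightest probe of a gene and diamonds the further ones. The probes of a gene lie close together except for Cox16, Sdhb, Cox15 and Cycs, with ranges of 1.37, 0.75, 0.69 and 0.62.

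The subunits encoded in mitochondrial DNA were read by 13 further genes on the array, and all 13 differences were negative, with a median of −1.03. ND3 (−1.86), ATP6 (−1.80), ATP8 (−1.78), COX2 (−1.59) and COX3 (−1.55) were called lower (38.5%, beside 20.2% of all genes) and none was called higher. The probes of these called genes, and that of ND4L, are placed on chromosome 1 in mm9 and not on mitochondrial DNA. No gene whose probe is placed on mitochondrial DNA was called. Whether the probes on chromosome 1 read mitochondrial RNA or that of a copy on chromosome 1 cannot be told here. Within a group the arrays varied more for these 13 genes than for the nuclear genes. Replicate 2 was above replicate 1 in both groups for all 13. The calls given here rest on the fit that does not pair arrays by replicate number. COX1, the catalytic subunit of complex IV, had levels of 8.09 and 8.77 with CPEB3 IgG, against 8.80 and 9.48 with control IgG, and CYTB of complex III had 6.69 and 7.79 with CPEB3 IgG, against 7.35 and 8.25 with control IgG. Neither was called (−0.71 and −0.56). ATP6 and ATP8, the 2 mitochondrially encoded subunits of complex V, were both called lower, with that limit on their probes. Most nuclear subunits of complex V were called lower too.

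Other genes that build or steer the chain were read from lists. Of 11 assembly factors of complexes II and III, 4 were lower (36.4%) and 2 higher (18.2%), beside 20.2% and 19.2% of all genes. In each list of this paragraph the share called higher was near that of all genes, and with so few genes it is not read as a difference. Sdhaf2, which attaches the flavin to Sdha, was higher by 1.69 (adjusted p = 0.0046). Sdhaf1, which acts on Sdhb, was higher by 0.68, and both were opposite to their client subunits. The other Sdhaf genes, Sdhaf4 (0.24) and Sdhaf3 (−0.08), were not called. Of 13 further complex IV assembly factors tested, 6 were lower (46.2%) and 2 higher (15.4%). Among them were Coa7 (−1.88), Lrpprc, which stabilises mitochondrial mRNAs (−1.22), and Coa5 (1.28). Of 6 genes listed for complex V assembly and inhibition, 2 were lower (33.3%) and 1 higher (16.7%). One of the lower genes, Foxred1 (−0.83), is known as an assembly factor of complex I. Atpif1, the inhibitor of ATP hydrolysis by complex V, was called lower (−1.81, adjusted p = 0.00528), and Atpaf2, a chaperone of the F1 alpha subunit, was higher by 0.99.

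Of 15 regulators of mitochondrial biogenesis, 8 were called higher (53.3%) and 1 lower (6.67%), beside 19.2% and 20.2% of all genes. Their median was 0.92, 6 of the 15 differences were negative, and the list was not tested against the subunits. Gabpb1 (2.68) and Gabpa (1.70), the subunits of the transcription factor also known as nuclear respiratory factor 2, were higher, as were Nrf1 (0.92) and Yy1 (1.29). Those that act on mitochondrial DNA included the helicase Twnk (1.76), the transcription factors Tfb2m (1.74) and Tfam (1.23), all higher, and Tfb1m (−1.07), lower. Ppargc1a, the coactivator known as PGC-1 alpha, had levels of 2.58 and 2.51 with CPEB3 IgG, against 3.02 and 2.36 with control IgG and was not called (−0.14).

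Complex I and the mitochondrial ribosome were read alongside as the gene groups most like these. Of 45 Nduf genes, which encode subunits or assembly factors of complex I, 37 were called lower (82.2%) and 0 higher, with a median of −1.40. Of 75 genes of mitochondrial ribosomal proteins, 49 were called lower (65.3%) and 8 higher (10.7%). Of all genes, 20.2% were called lower and 19.2% higher. The genes of complexes II to V, at 33 lower (57.9%) and 7 higher (12.3%) of 57, had a smaller share called lower than either group. They did not stand apart from these groups by any test made here, since lists were not tested against each other.

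**Figure D5:**
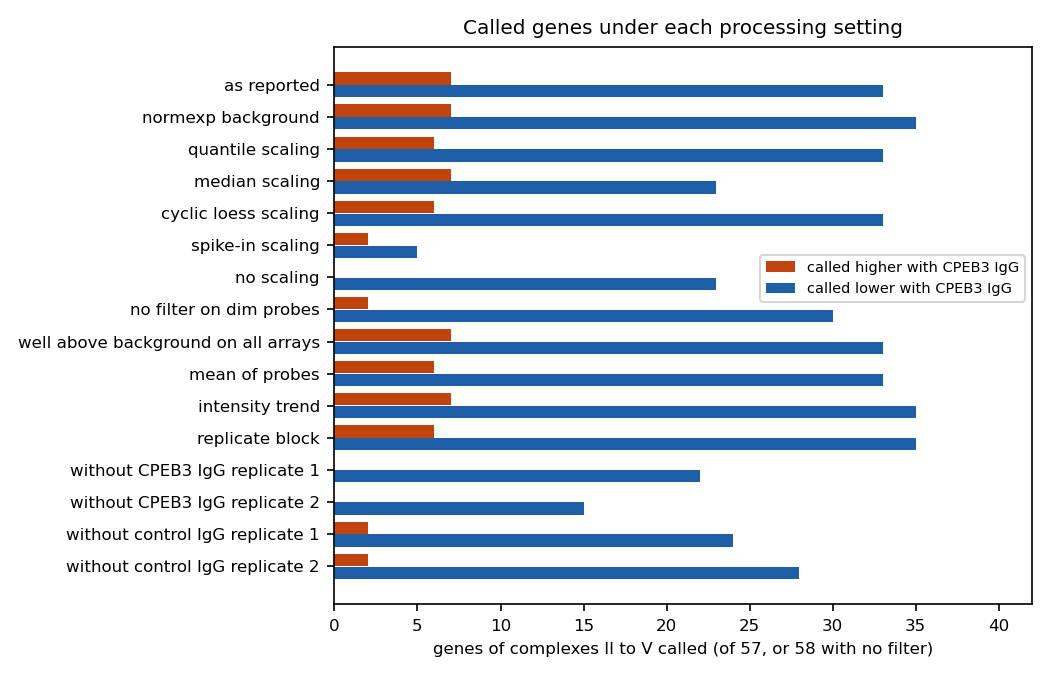
Number of genes of complexes II to V called higher or lower with CPEB3 IgG under each processing setting, of 57 tested (58 with no filter on dim probes). Bars start at 0. Between 5 and 35 genes are called lower and between 0 and 7 higher, with the fewest lower under spike-in scaling.

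The letters of the probes were compared with those of all probes on the array. Of the 91 member probes, 27 hold AATAAA (29.7%) and 12 hold ATTAAA (13.2%), where 11% and 4.06% of all 40616 probes do. The median position of the member probes was base 485 of the transcript, beside 961 for all probes. Transcript length was not used, so these positions do not say how near the probes lie to either end. TTTTAT is in 1 member probe (1.1%, Uqcrc1) and in 3.71% of all probes, and TTTTAAT in 1 member probe (Cox15) and 0.901% of all. These motifs were searched on the sense strand, and no match says only that the letters are not in that probe. The share of T was the same, with a median of 28.3% in both sets. Across probes, which are not independent, share and log2 difference correlated at a Spearman rho of 0.22 over the member probes (n = 91), beside 0.28 over all probes.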

How the data were processed

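The members and the gene lists were chosen with earlier results of these data known. The authors deposited scanner output for each array, a 1-colour spot intensity made by Agilent Feature Extraction 10.5.1.1 as the headers state. Its processed intensity was background-subtracted by that program and not yet normalised between arrays, per the file headers. Flags and probe positions (mm9) were used as deposited.

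Control spots and outlier spots (123 to 223 an array) were left out, spots of a probe were averaged, and log2 of the signal was set relative to the 75th percentile of the array. A probe was kept when 2 or more of the 4 arrays had it well above background, and the brightest probe stood for its gene. Symbols were updated through a RefSeq table, which matched 27509 of 55681 probes. The fit used limma 3.58.1 under R 4.3.3 (lmFit, eBayes), with 95% intervals, and was tested on simulated arrays. The text names all members. It gives values on each array for genes called against the majority, for up to 4 called genes with the largest differences in each group, and for genes whose probes differ in sign where at least 1 was called. The lists were assembly factors, mitochondrially encoded subunits, biogenesis regulators and markers of neurons, interneurons, glia, microglia, blood vessels, muscle, testis and cerebellum. Replicate arrays shared 0 identical spot values. The 4 arrays share 1 slide and 1 scan, and no slide or scan block could be fitted. Alternatives were other background correction (normexp, offset 50), scaling, filters, probe averaging, a variance trend, a replicate block, each array left out, and stricter thresholds. The set of the brightest 25% of genes was chosen after seeing the data.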

Additional observations from a re-analysis of the deposited data

How the results depend on the processing

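Called genes of complexes II to V numbered 7 higher and 33 lower, with a median log2 difference of −0.89. No called gene turned its sign in any of the 15 other settings. In all of them 5 calls held (Atp5d, Uqcrc1, Atp5o, Cox5a and Atp5c1-ps). Atp5c1-ps is the pseudogene whose probe may bind RNA of Atp5c1. With spike-in scaling 2 were called higher and 5 lower and the median was −0.23. Of all called genes, 86.4% were higher with that scaling and 68.4% with median scaling, beside 48.7% as reported. With median scaling the median was −0.60, with 7 higher and 23 lower, beside 6791 and 3137 of all 27687 genes. Without scaling 0 were called higher and 23 lower, beside 3110 and 3629 of all 27687 genes. At an unadjusted p under 0.05 (limma), 2 were higher and 29 lower without scaling. Without the filter on dim probes 2 were higher and 30 lower, beside 4355 and 4121 of all 34936 genes then tested. At adjusted p 0.01, 0 were higher and 15 lower. At adjusted p 0.05 with a 2-fold difference also required, 2 were higher and 25 lower. The shares over all genes at these thresholds are not given here. With each array left out in turn, 0 to 2 were called higher and 15 to 28 lower, and the median ran from −1.10 to −0.84. The fewest members were called without CPEB3 IgG replicate 2, where their median was −0.84, beside −0.17 for all genes. Of 40 calls, 15 held in all 4 of these fits, in which the lone array of a group is assumed to vary like the other group. With the replicate number as a replicate block 6 were higher and 35 lower, and the call of Cox11 was lost (adjusted p = 0.0511). Same-numbered arrays deviated together (correlation 0.39 over genes), but with 2 pairs the numbers were not taken to pair the samples. Among the other settings, normexp gave 7 and 35, quantile and cyclic loess scaling 6 and 33, a filter on all arrays 7 and 33, the mean of probes 6 and 33, and the intensity trend 7 and 35. The cause of these changes was not tested. The number of arrays limits the precision, and 33 of the 40 calls were lost with spike-in scaling.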
